A study of Arabidopsis thaliana with 12 samples.

Results

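The untreated seedling shoot is described here from the 3 mock libraries of a series of 12, chosen by their label alone: shoots of Arabidopsis thaliana that had spent 8 h on plates with the solvent DMSO. The other 9 libraries, 3 each, came from shoots that had spent the same 8 h on 2 µM AZD8055, 20 µM KU63794 (written KU63749 in the treatment text) or 10 µM TORIN1, all inhibitors of the active site of the kinase TOR. Every library came from wild-type Col-0 seedlings, 4 days after germination, grown upright in continuous light and then moved to fresh plates, so the mock shoots also carry the transfer and the solvent. About 30 mg of shoot tissue went into each sample, and poly(A) RNA was sequenced. The labels do not say whether the 3 mock samples were grown as separate cultures, so the spread given below may be partly technical.

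A young green shoot makes much of its messenger RNA for the chloroplast. The nucleus encodes the small subunit of Rubisco, the enzyme that fixes carbon dioxide, the antenna proteins that hold chlorophyll and most subunits that surround the plastid-encoded reaction centres, while the cytosolic ribosome makes all of these proteins before they are imported. TOR and its counterpart SnRK1 are the kinases that tie growth and ribosome production to sugar and energy supply, and the low-energy genes that SnRK1 turns on are a usual gauge of that state.

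Over 33602 gene identifiers the inhibitor libraries held 9312409 to 14696645 counts and the mock libraries 14220537, 10552958 and 7706957. A floor of 3 counts is 0.211, 0.284 and 0.389 CPM (a gene's count scaled to a common library total) in the 3 mock libraries, and such floors cover counting error only. At 1 CPM or more in each mock library, 16105 genes were detected. Another 11555 identifiers had no count in any mock library, of which 1725 had a count in an inhibitor library. Protein-coding genes took 98.29 ± 0.042% of the mock counts (SD, n = 3 libraries, as for every mean below), long noncoding RNAs 0.785 ± 0.020%, organelle-encoded genes 0.330 ± 0.024% and the 4 annotated ribosomal RNA genes 0.0134 ± 0.0042%. In pairs, the mock libraries correlated at r = 0.987 to 0.990 across genes of 10 CPM or more on the log2 scale, which describes likeness over genes and is not a test, and their counts differed by more than sampling noise, so none was a second copy of another.

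Messenger RNA of the mock shoot was concentrated in few genes. The highest gene by counts, RBCS1A, held 2.56%, 2.53% and 2.61% of the 3 libraries, the 10 highest held 9.59 ± 0.24%, the 100 highest 26.18 ± 0.51% and the 1000 highest 55.90 ± 0.59%. The libraries reached 50% of their counts with 736, 694 and 687 genes. The curves of level by rank lay almost on top of each other, and of all detected genes 1917 reached 100 CPM and 79 reached 1000 CPM on average.

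**Figure D1:**
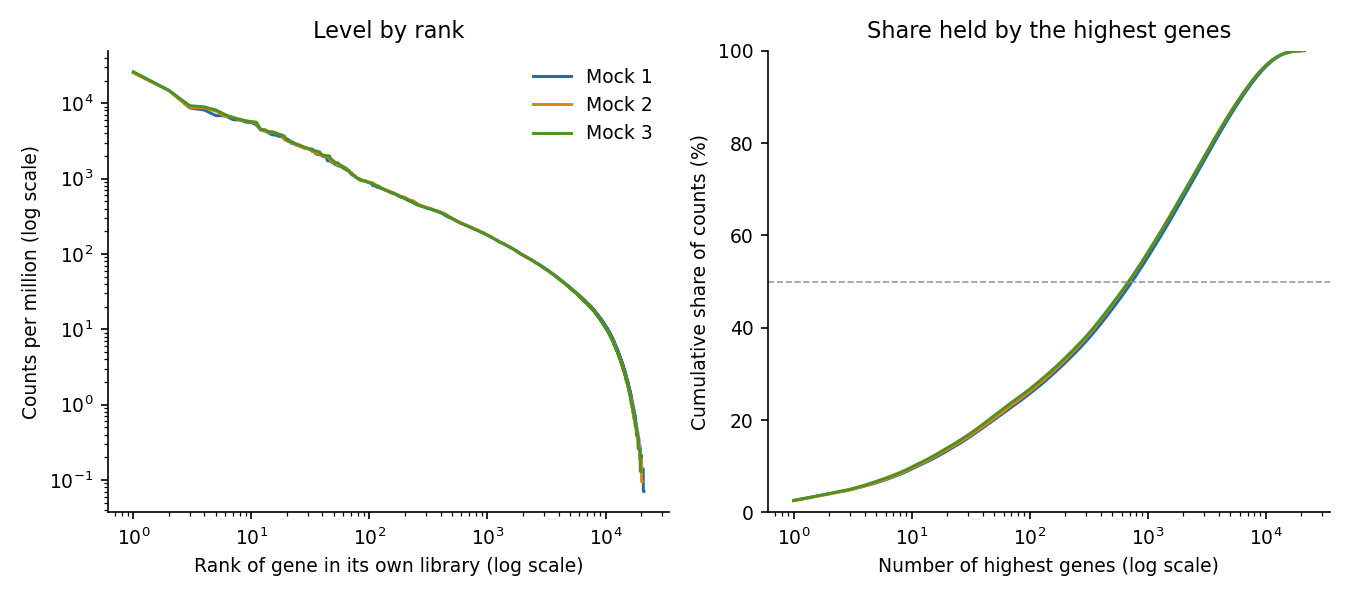
Left, CPM of each gene against its rank in its own library, both on log scales; right, the cumulative share of counts (%) against the number of highest genes (log scale), with a dashed line at 50%. Each line is 1 mock library; the 3 lines nearly coincide and cross 50% at 736, 694 and 687 genes.

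Levels between genes were compared per transcript length, in TPM (counts divided by exon length and scaled to a common total), with exon lengths from the RefSeq annotation. The detected nuclear genes with a length, 15975 in all, had a median of 14.7 TPM and an interquartile range of 5.35 to 41.0 TPM. Of the 20 highest, 14 belong to the 7 photosynthesis lists, of the 100 highest 49 and of the 500 highest 74. Cytosolic ribosomal protein genes were absent from the first 20 and numbered 7 in the first 100 and 91 in the first 500. They outnumber photosynthesis genes at that depth, but their list holds 212 genes against 114. A smaller part of the ribosomal protein list than of the photosynthesis lists thus ranked there. The 20 highest genes had a median exon length of 1398.5 bases, against 1837 bases for nuclear genes of 1 CPM or more.

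The nuclear family of Rubisco small subunits led the ranking. RBCS1A (AT1G67090) stood at 32435, 32392 and 33612 TPM in the mock libraries, RBCS3B (AT5G38410) at 16906, 16920 and 17102 TPM and RBCS2B (AT5G38420) at 7366, 7780 and 7851 TPM. RBCS1B was the lowest of the 4 copies at 3395 ± 285 TPM and fell just outside the first 20, below PETC at 3451 ± 279 TPM, so the order at that edge lies within the replicate spread. These copies are close in sequence, and how reads shared between them were assigned is not given in the sources used here, so the split among them is uncertain while their sum is less so. Together the 4 copies held 4.51% to 6.44% of counts in the inhibitor libraries and 4.83%, 4.85% and 4.96% in the mock libraries, so the ranges overlap.

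Photosystem and antenna genes filled most of the next places. PSBR, a small lumenal subunit of photosystem II, stood at 11343, 11278 and 11649 TPM, and LHCB5, the minor antenna protein CP26, at 7928, 7838 and 8289 TPM. PSAK and PSAO, small subunits of photosystem I, averaged 6672 ± 306 and 5129 ± 591 TPM. LHCA4 and LHCA2, antenna proteins of photosystem I, averaged 5098 ± 428 and 3755 ± 128 TPM. PETC, the Rieske protein of the cytochrome b6f complex, closed the first 20.

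Enzymes around carbon fixation and its side path formed the other large block. RCA, the activase that frees Rubisco of bound sugar phosphates, stood at 6207, 6705 and 6930 TPM, and FBA2, a plastid aldolase of the Calvin cycle, averaged 3893 ± 218 TPM. Photorespiration recovers carbon after Rubisco has taken oxygen, and its aminotransferase GGT1 and mitochondrial serine hydroxymethyltransferase SHM1 averaged 4648 ± 213 and 4599 ± 421 TPM. GS2, the plastid glutamine synthetase that takes back the ammonia released, averaged 4442 ± 162 TPM and CA1, a carbonic anhydrase, 4419 ± 194 TPM. In the order GGT1, SHM1, MT1A, GS2 and CA1, each mean differs from the next by less than the SD of either, whereas GGT1 stood above CA1 in all 3 libraries.

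The first 20 also held other genes outside the 7 photosynthesis lists. PYK10 (AT3G09260), the beta-glucosidase stored in ER bodies of seedlings, stood at 6044, 7050 and 7342 TPM. AT1G72600, annotated as a hydroxyproline-rich glycoprotein, was among the steadiest of the 20 at 4865, 4784 and 4821 TPM. MT1A, a metallothionein, averaged 4551 ± 505 TPM over an annotated exon length of 138 bases and ranked 343 by counts, so its place in the ranking rests on that short length. AT4G01150, annotated as a CURVATURE THYLAKOID 1A-like protein, averaged 3651 ± 339 TPM.

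**Figure D2:**
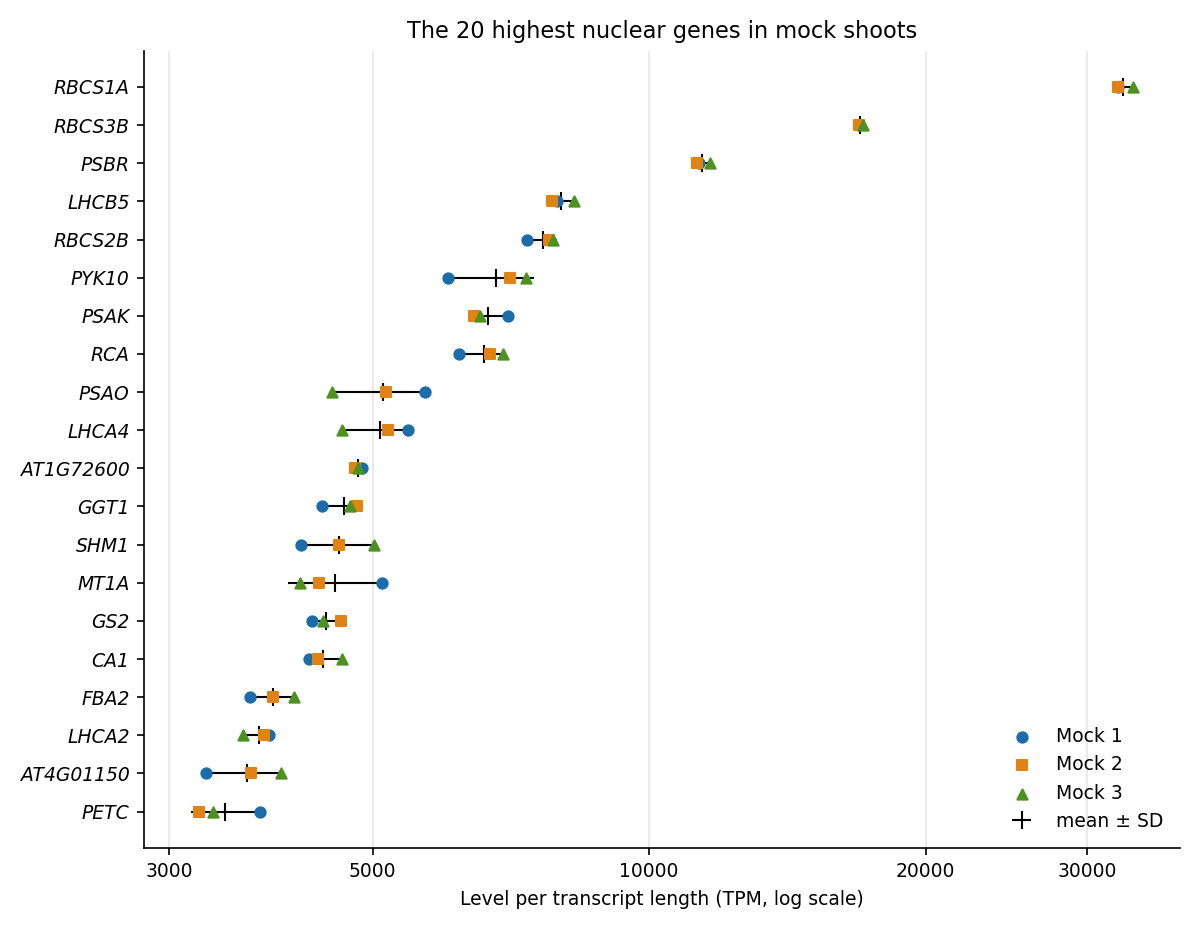
Level per transcript length (TPM, log scale) of the 20 highest nuclear genes, 1 symbol per mock library, with mean and SD. RBCS1A, at 32392 to 33612 TPM, stands above RBCS3B, at 16906 to 17102 TPM, and PYK10 has the lowest library at 6044 and the highest at 7342 TPM.

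The order was shared in large part with the inhibitor groups. Of the 20 highest mock genes, 18 were also among the 20 highest of AZD8055, of KU63794 and of TORIN1 shoots, and of the 100 highest 84, 84 and 85. Of the 500 highest, 392, 395 and 419 were shared with those 3 groups. RBCS1A, RBCS3B and PSBR ranked 1, 2 and 3 in all 4 groups.

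Short proximal promoters were read for 4 of these genes because the photosynthesis and ribosomal protein genes, the 2 largest blocks of the mock transcriptome, differ in the motifs their promoters hold. Each is the 200 bases before the most upstream gene start in the RefSeq annotation of TAIR10.1, on the gene's strand, so it contains none of the gene's own transcript. Shown are the 2 highest photosynthesis genes with a G-box and the 2 highest ribosomal protein genes with both a site II core and a telo-box whose windows touch no other annotated gene. Capitals mark 5 motifs searched on both strands: the TATA box TATAAA, the G-box CACGTG, the I-box core GATAAG, the site II core GGCCCA and the telo-box AAACCCTA. RBCS2B lies on the minus strand at chr5:15382072-15382271, LHCA4 on the minus strand at chr3:17495034-17495233, AT4G27090 (ribosomal protein L14) on the minus strand at chr4:13595253-13595452 and AT1G52300 (zinc-binding ribosomal protein) on the minus strand at chr1:19476235-19476434.
RBCS2B: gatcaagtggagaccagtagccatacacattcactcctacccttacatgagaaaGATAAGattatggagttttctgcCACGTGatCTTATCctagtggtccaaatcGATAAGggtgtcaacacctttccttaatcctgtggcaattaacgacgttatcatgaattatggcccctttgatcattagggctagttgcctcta
LHCA4: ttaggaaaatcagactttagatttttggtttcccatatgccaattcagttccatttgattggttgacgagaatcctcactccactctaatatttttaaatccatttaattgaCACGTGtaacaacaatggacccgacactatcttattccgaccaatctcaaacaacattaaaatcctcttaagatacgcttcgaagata
AT4G27090: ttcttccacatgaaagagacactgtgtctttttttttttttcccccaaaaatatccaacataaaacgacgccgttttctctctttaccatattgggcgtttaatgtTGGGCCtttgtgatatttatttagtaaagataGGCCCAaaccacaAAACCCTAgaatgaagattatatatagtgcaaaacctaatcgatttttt
AT1G52300: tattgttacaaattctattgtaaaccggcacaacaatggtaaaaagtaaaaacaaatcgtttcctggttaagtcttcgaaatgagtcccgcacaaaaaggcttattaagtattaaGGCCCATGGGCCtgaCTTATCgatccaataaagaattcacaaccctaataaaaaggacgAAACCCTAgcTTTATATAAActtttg

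In RBCS2B a G-box was flanked by I-box cores, an arrangement known from Rubisco small subunit promoters. Over the 114 genes of the photosynthesis lists, 15.8% of these windows held a G-box, against 2.83% over the 212 cytosolic ribosomal protein genes and 5.74% of all 26699 nuclear protein-coding genes. Site II cores ran the other way, at 15.8% of photosynthesis windows, 55.7% of ribosomal protein windows and 12.8% of all. Telo-boxes were held by 0.877%, 19.3% and 3.70%, and I-box cores by 16.7%, 12.7% and 9.90%. TATA boxes were held by 36.8%, 45.8% and 41.4%. Among the 97 windows of the 100 highest genes, 14.4% held a G-box and 26.8% a site II core. Matches of different motifs were counted separately even where they could overlap, and a match describes letters only.

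Gene lists gave the share of mock messenger RNA by function. The 25 lists hold 916 genes and took 24.86 ± 0.039% of mock counts. The 7 photosynthesis lists with 114 genes took 18.97% to 22.39% in the inhibitor libraries, against 18.3%, 18.4% and 18.7% in mock, without overlap. Taken singly, the Calvin cycle, antenna and electron transport lists did overlap, the first at 7.57% to 10.53% in the inhibitor libraries. Chlorophyll synthesis was lower there, at 0.520% to 0.599%. Shares of a library add to a fixed total, so a share also moves when the counts of other genes change. In whole shoots a lower share can further mean fewer cells of a type or less RNA per cell, and these cannot be told apart.

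**Figure D3:**
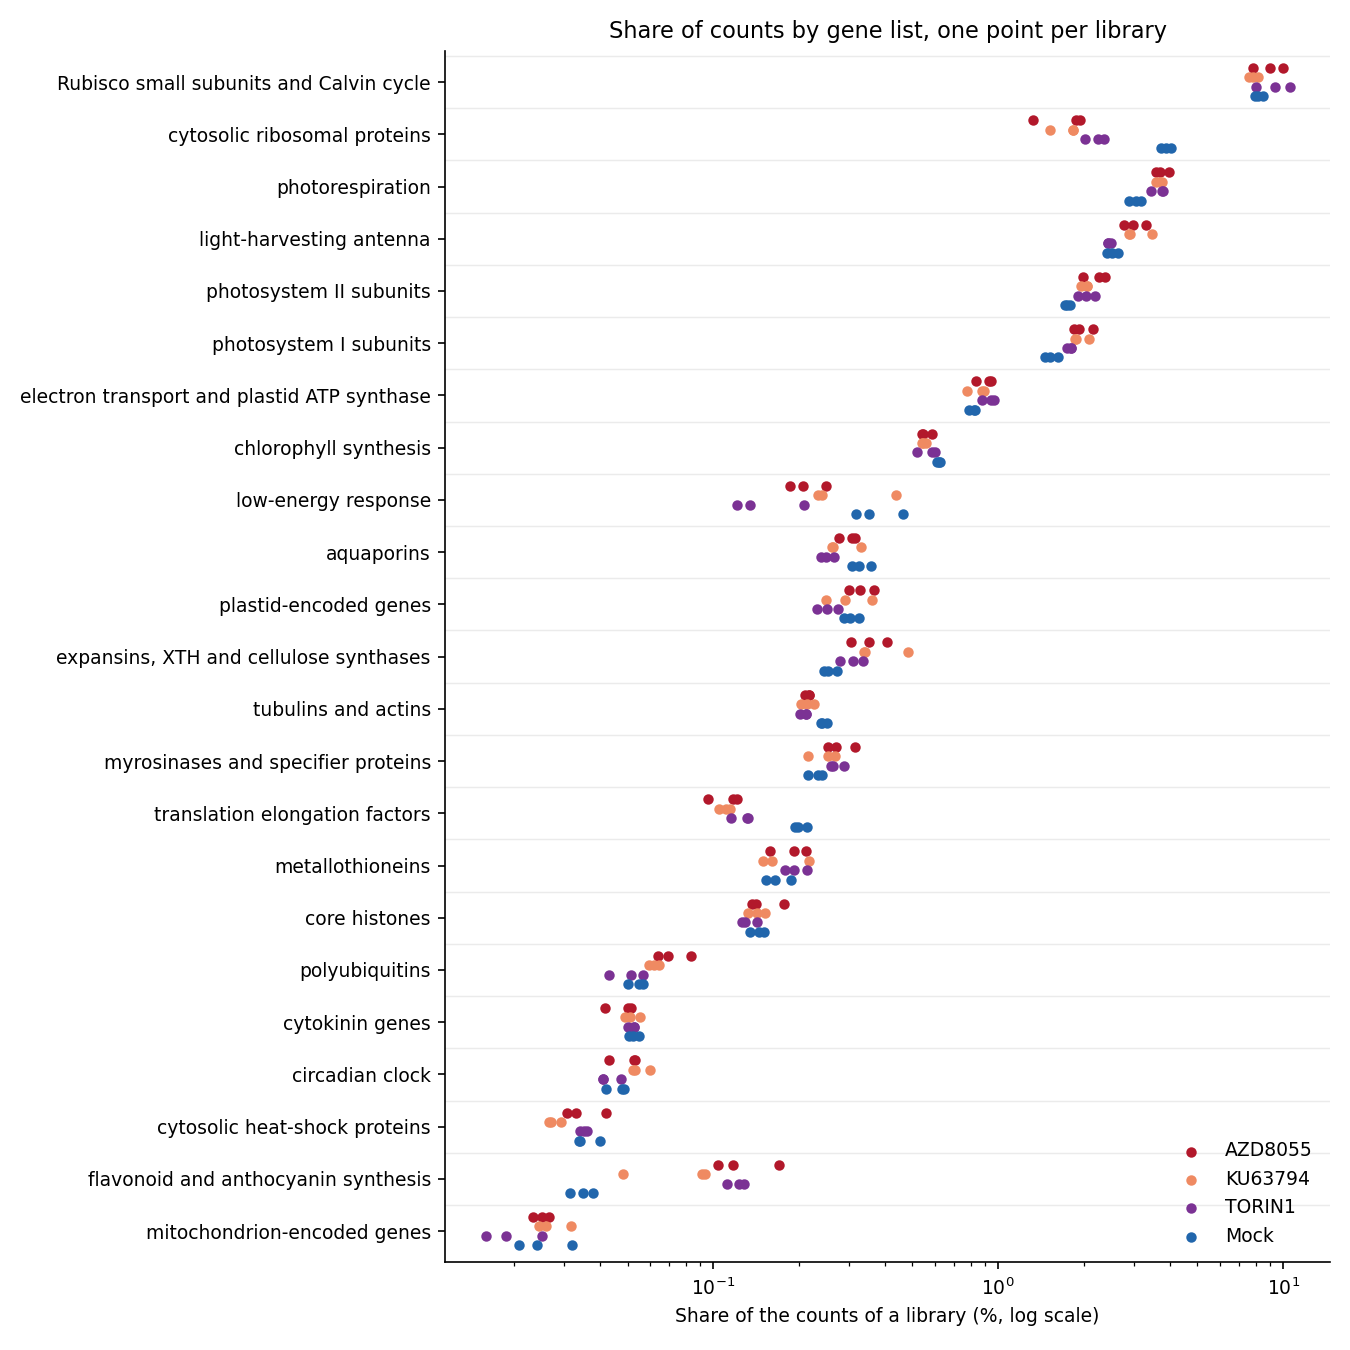
Share of the counts of a library (%, log scale) taken by each of 23 gene lists, 1 point per library, with the rows of a list running from AZD8055, KU63794 and TORIN1 down to mock. Ribosomal protein genes lie at 1.32% to 2.34% in the inhibitor libraries, apart from 3.73% to 4.02% in mock.

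Rubisco small subunits and Calvin cycle genes were the largest list. Its 20 genes took 7.94%, 8.18% and 8.53% of the 3 mock libraries, and 15 of them averaged 1000 TPM or more. CP12-2, a small regulatory protein that binds Calvin cycle enzymes in the dark, was lowest at 49.2 ± 6.9 TPM. The 13 photorespiration genes took 3.44% to 3.99% in the inhibitor libraries, against 2.89%, 3.04% and 3.17% in mock, with no overlap. The lowest of them, AT1G80380, averaged 419 ± 27 TPM in mock.

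Antenna genes took 2.63%, 2.50% and 2.40% of mock counts with 20 members, photosystem II subunits 1.79%, 1.72% and 1.74% with 12, and photosystem I subunits 1.61%, 1.52% and 1.46% with 13. Electron transport and plastid ATP synthase took 0.813 ± 0.023% and chlorophyll synthesis 0.617 ± 0.008%, the smallest relative spread of these lists. Genes listed for one complex, sister copies of a subunit included, spanned a wide range of levels. Photosystem I ran from PSAK at 6672 ± 306 TPM to PSAD-2 at 89.8 ± 17.5 TPM, and photosystem II from PSBR at 11423 ± 198 TPM to PSBP-2 at 0.502 ± 0.458 TPM. PSBP-2 is the sister copy of PSBP-1, which averaged 3079 ± 105 TPM, so that low end is not the level of subunit P. LHCB1 genes, which encode the most abundant antenna protein of leaves, were listed at 700 ± 63 TPM for CAB1 and below that for the other copies, under LHCB5. The LHCB1 copies are near-identical, as are PSAD-1 and PSAD-2, so their values are uncertain and the low end of the photosystem I range with them.

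Where a subunit or enzyme is encoded by sister copies, the share of each copy varied little between mock libraries for some pairs and more for others. These pairs were chosen after their values were seen, and each share is of the summed TPM of both copies. PSBO2 made up 34.2%, 34.0% and 33.7% of the photosystem II subunit O pair, PSAE-2 28.7%, 29.5% and 28.9% of the subunit E pair of photosystem I, and FNR2 44.7%, 45.5% and 44.7% of ferredoxin-NADP reductase. The range over libraries was within 1 percentage point for each of these 3 pairs. CP12-2 made up 24.5%, 26.5% and 32.5% of its pair with CP12-1, and POR C 39.8%, 44.2% and 38.8% of its pair with PORB, so these varied more. CA2 made up 31.3 ± 0.61% of its pair with CA1 and GOX2 44.2 ± 0.22% of its pair with GOX1, both enzymes of carbon handling. GOX2 made up 34.8% to 40.6% of its pair in the inhibitor libraries, below all mock values, PSAE-2 24.99% to 27.3%, also below, and RBCS1B 5.39% to 7.75% of its pair with RBCS1A, against 9.37 ± 0.63% in mock. For the other 9 pairs the inhibitor range overlapped the mock range. Examples in the inhibitor libraries are PSBO2 at 31.3% to 37.2%, FNR2 at 42.9% to 49.8% and CA2 at 27.3% to 34.4%. How often such ranges part over all sister copies was not counted, so these numbers describe the chosen pairs only. Nearly silent copies were PSBP-2 at 0.0166 ± 0.0151% of the subunit P pair, PORA at 0.227 ± 0.218% of its pair with PORB, both protochlorophyllide oxidoreductases, and PETE1 at 3.15 ± 0.55% of the plastocyanin pair with DRT112. PORA is known from dark-grown seedlings, and had 0.368 ± 0.383 TPM here.

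Cytosolic ribosomal protein genes were the second list, with 4.02%, 3.87% and 3.73% of mock counts over 212 genes. Of these, 199 reached 1 CPM in each library, 6 had no count, and the median gene stood at 263.5 TPM with quartiles of 73.9 and 442 TPM. AT3G60245, a zinc-binding ribosomal protein, was highest at 2518, 2299 and 2206 TPM, followed by AT4G27090 at 1609, 1495 and 1457 TPM. UBQ1, a ubiquitin fused to a ribosomal protein, averaged 1420 ± 44 TPM and AT5G20290, of the S8e family, 1216 ± 40.4 TPM. Mock 1 was highest for 128 of the 199 members, Mock 2 for 46 and Mock 3 for 25. Over all 10275 genes of 10 CPM or more, Mock 1 was highest for 41.6%, Mock 2 for 26.4% and Mock 3 for 32.0%. Transcripts under 1000 bases had a median log2 ratio of Mock 1 over Mock 3 of 0.11, against 0.03 for those of 1000 to 2000 bases, and the part of length in the ribosomal protein values was not tested.

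Ribosomal protein genes took a larger share in every mock library than in any inhibitor library, which held 1.32% to 2.34%. Each gene was tested for the mean of the 3 inhibitors minus mock in edgeR's quasi-likelihood fit over all 12 libraries, with Benjamini-Hochberg adjustment over 17933 genes and a threshold of 0.05. Of all genes tested, 32.8% were called, 15.2% higher and 17.6% lower in the inhibitor shoots, with a median log2 change of -0.0035. Of the 200 ribosomal protein genes tested, 196 were lower and 0 higher, with a median log2 change of -1.09. Leaving out any 1 library left 188 to 199 lower and 0 higher. AT3G60245 had a log2 change of -1.34 ± 0.10 (SE, adjusted p = 5.42e-07) and AT5G20290 of -1.09 ± 0.12 (adjusted p = 7.17e-06).

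Translation elongation factors took 0.0955% to 0.132% of counts in the inhibitor libraries, against 0.198%, 0.212% and 0.194% in mock. Their highest mock genes were AT5G19510, a subunit of the exchange factor eEF1B, at 702 ± 34 TPM and eEF-1Bb1 at 627 ± 31 TPM. Of 11 genes, 10 were lower in the inhibitor shoots and 0 higher, beside 17.6% and 15.2% of all genes tested. AT5G19510 had a log2 change of -0.99 ± 0.10 (edgeR adjusted p = 5.19e-06). The 4 near-identical genes of eEF1A were listed at lower levels than AT5G19510, and their values are uncertain for that likeness.

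For photosynthesis genes the counts are read against the same 15.2% higher and 17.6% lower over all genes. Of 20 Rubisco and Calvin cycle genes 2 were higher and 1 lower in the inhibitor shoots, of 13 photorespiration genes 4 and 1, and of 20 antenna genes 5 and 2. Of 13 photosystem I genes 5 were higher and 0 lower, and of 12 photosystem II genes 1 was higher and 0 lower. For the antenna list the number higher was 2 without Mock 2 or Mock 3, 3 without Mock 1 or TORIN1 3 and 10 without AZD8055 2. For photosystem I it was 1 without Mock 1 and 7 without AZD8055 2, and for photosystem II 5 without AZD8055 2. For Rubisco and the Calvin cycle it was 1 without Mock 1 and 3 without AZD8055 2. LHCB4.3, the least abundant antenna gene at 44.4 ± 4.2 TPM in mock, had a log2 change of 0.91 ± 0.16 (adjusted p = 0.000994). In chlorophyll synthesis 9 of 22 genes were lower and 0 higher in the edgeR test, among them the porphobilinogen deaminase HEMC at -0.65 ± 0.09 (adjusted p = 7.38e-05) and the chlorophyll synthase G4 at -0.50 ± 0.10 (adjusted p = 0.00135).

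Low-energy genes, induced when sugar or light runs short, varied between the mock libraries together. The 16 genes took 0.351%, 0.464% and 0.317%, a coefficient of variation of 20.4%, which only the scarcer mitochondrial and seed lists passed, at 22.04% and 30.2%. SEN1, a senescence and darkness marker, stood at 686, 1038 and 643 TPM in Mock 1, Mock 2 and Mock 3. ASN1, the asparagine synthetase of the starved state, stood at 312, 431 and 263 TPM, and BCAT-2, which breaks down branched-chain amino acids, at 249, 371 and 239.9 TPM. All 16 members were highest in Mock 2, where 26.4% of all genes of 10 CPM or more were highest, and 14 were lowest in Mock 3. TPS10, a trehalose-phosphate synthase, was the lowest member at 9.63, 11.4 and 9.46 TPM.

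The number called against the inhibitors moved with Mock 2. Of the 16 genes, 14 were lower and 1 higher in the inhibitor shoots by edgeR, beside 17.6% and 15.2% of all genes tested. Their median log2 change was -0.89, and 8 were lower without Mock 2. The gene higher was ERD5, a proline dehydrogenase, and DYL1 did not pass. BCAT-2 had a log2 change of -2.07 ± 0.27 (adjusted p = 0.00031) and ASN1 of -1.45 ± 0.32 (adjusted p = 0.00775). Both were called without Mock 2 as well. The summed share of the list was 0.121% to 0.439% in the inhibitor libraries and 0.317% to 0.464% in mock, so the ranges overlap.

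Other functions took smaller shares of the mock transcriptome. Aquaporins, the water channels, took 0.323%, 0.358% and 0.307%, led by DELTA-TIP at 757, 929 and 732 TPM and TIP2 at 588, 660 and 541 TPM, both of the vacuole membrane. Mock 2 was highest for these, as for the low-energy genes. DELTA-TIP had a log2 change of -0.82 ± 0.17 (edgeR adjusted p = 0.00262) in the inhibitor shoots and TIP2 of -0.57 ± 0.13 (adjusted p = 0.00381). Genes of wall loosening and synthesis took 0.256 ± 0.013% over 73 genes, of which 44 reached 1 CPM in each library, led by the xyloglucan endotransglucosylase XTH4 at 443 ± 60 TPM. Tubulins and actins took 0.243 ± 0.006%, led by ACT2, a common reference gene, at 336, 345 and 340.1 TPM. ACT2 had a log2 change of -0.45 ± 0.09 (adjusted p = 0.00124) and ACT8 of -0.81 ± 0.09 (adjusted p = 1.47e-05) in the inhibitor shoots.

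Myrosinases and specifier proteins, which act on glucosinolates, took 0.230 ± 0.013%, of which TGG1 at 1474, 1674 and 1726 TPM held 82.2%. Metallothioneins took 0.188%, 0.164% and 0.153%, core histones 0.143 ± 0.008% and polyubiquitins 0.054 ± 0.003%. UBQ10 was the highest polyubiquitin at 274 ± 12 TPM. The 44 histone genes were led by AT4G40040, a histone H3, at 551 ± 55 TPM, and 22 of them averaged below 10 TPM.

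Regulatory and stress lists were the smallest. Cytokinin genes took 0.053 ± 0.002%, led by the response regulator ARR4 at 84.7 ± 5.4 TPM, which had a log2 change of -0.67 ± 0.09 (edgeR adjusted p = 6.06e-05), while the cytokinin-activating LOG8, at 42.1 ± 4.0 TPM in mock, had one of 0.98 ± 0.15 (adjusted p = 0.000186). Of 24 tested, 7 were lower and 2 higher, beside 17.6% and 15.2% over all genes. Clock genes took 0.048%, 0.049% and 0.042%, with the morning genes LHY at 58.8, 50.4 and 38.4 TPM and CCA1 at 41.7, 40.3 and 29.6 TPM, both highest in Mock 1 and lowest in Mock 3. Cytosolic heat-shock genes took 0.036 ± 0.004%, led by HSC70-1 at 86.7, 119 and 81.8 TPM, which had a log2 change of -0.70 ± 0.16 (edgeR adjusted p = 0.00399). Flavonoid genes took 0.0480% to 0.171% in the inhibitor libraries, against 0.038%, 0.035% and 0.031% in mock, where the chalcone synthase TT4 led at 131, 122 and 129 TPM. Of 17 genes, 13 were higher and 0 lower in the edgeR test, among them DFR at 2.75 ± 0.34 (adjusted p = 0.000194) and TT4 at 1.25 ± 0.18 (adjusted p = 0.000218) on the log2 scale.

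Organelle-encoded genes were scarce, in libraries selected for poly(A) tails, which organelle transcripts mostly lack. The 133 plastid identifiers took 0.325%, 0.288% and 0.302% of mock counts, and the highest of them, ATCG00480, at 914 ± 22 CPM, ranked 96 among all genes by counts. The 146 mitochondrial identifiers took 0.0318%, 0.0241% and 0.0208%, of which 73 had no mock count. Their highest, ATMG00030, averaged 193 ± 49 CPM. No lengths were at hand for organelle genes, so they have no TPM.

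Among the cell type markers, those of mesophyll were the highest. The 4 mesophyll markers summed to 35490, 35342 and 36523 CPM. Most of that sum was RBCS1A at 25660 and CA1 at 8900 CPM, ranks 1 and 3 of all genes by counts. LHCB2.1 averaged 694 ± 76 CPM and LHCB1.3 531 ± 49 CPM. The 4 epidermis markers summed to 438, 456 and 460 CPM, with the epidermal regulator ATML1 at 104, 109 and 118 CPM. Sums over different genes do not give the share of a cell type. Phloem was present through the sucrose carrier SUC2 at 61.8 ± 2.6 CPM and xylem through the secondary wall cellulose synthase CESA4 at 19.7 ± 1.9 CPM, while VND7, a master regulator of vessel cells, had 9, 6 and 0 counts. Guard cell markers ran from HT1 at 1.62 ± 0.62 CPM to FAMA at 21.7 ± 2.7 CPM. Markers of the stomatal lineage, of which 4 of 5 reached 1 CPM in each library, summed to 19.03 ± 1.05 CPM.

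**Figure D4:**
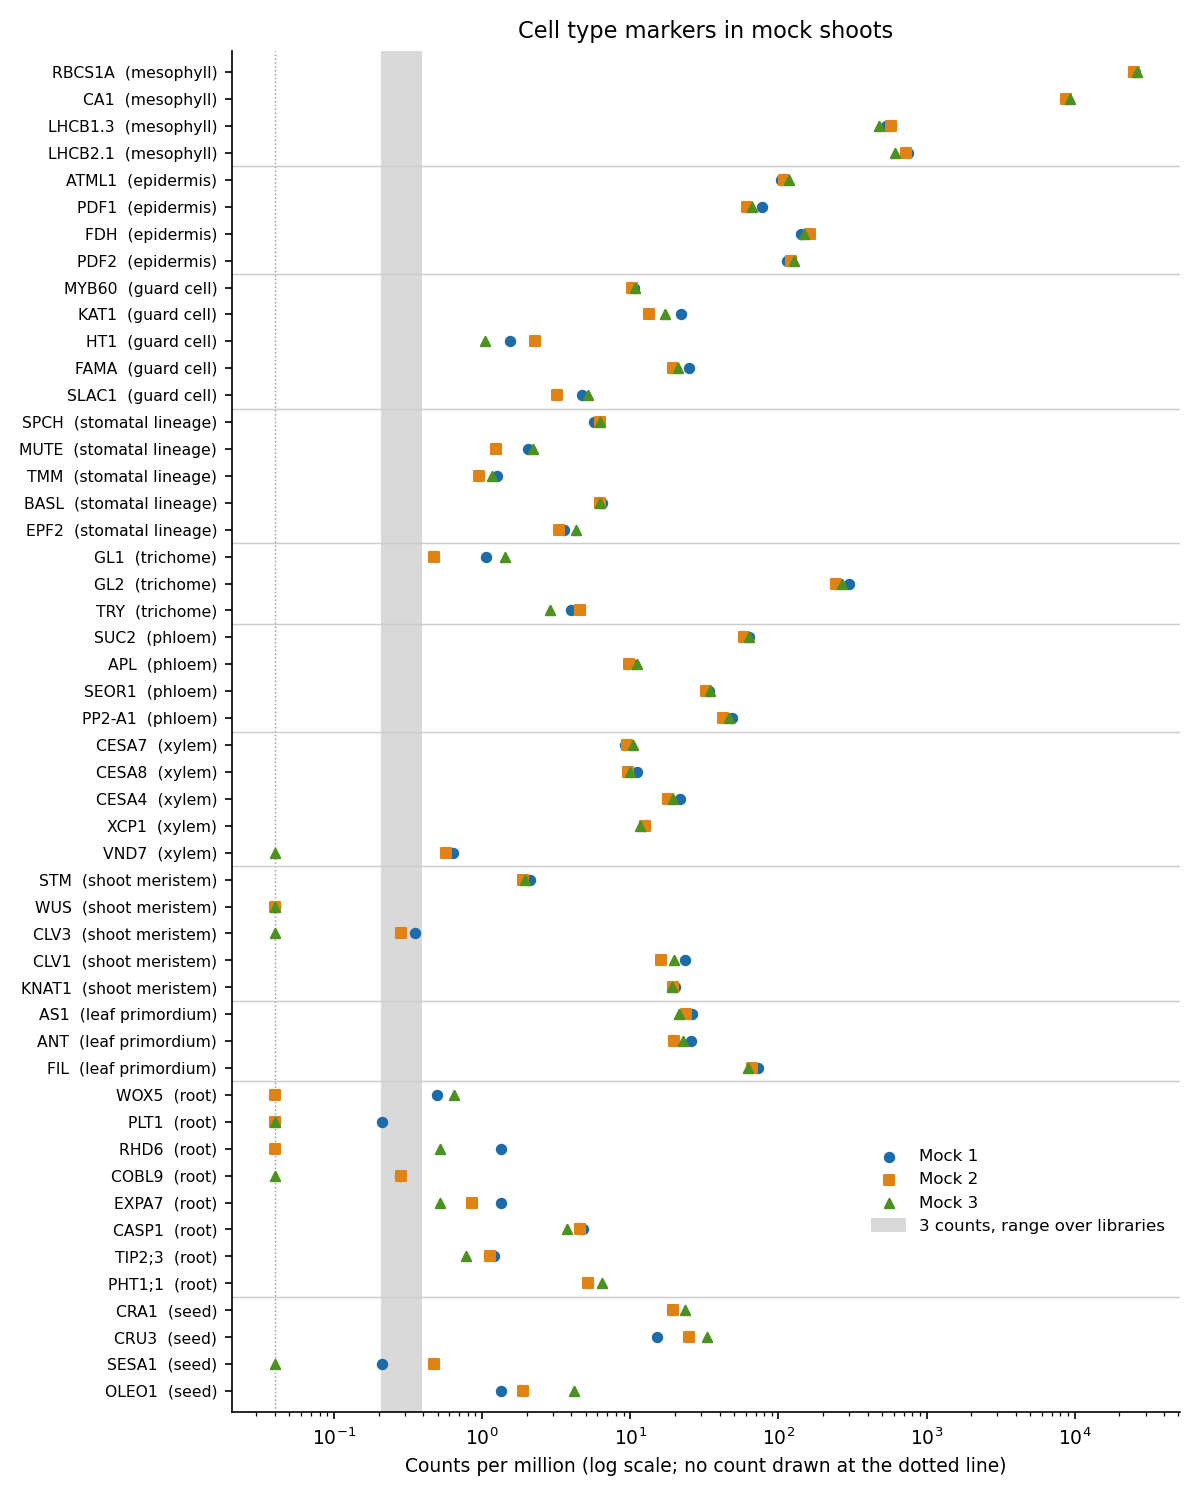
CPM (log scale) of 50 cell type markers in the 3 mock libraries, grouped by cell type, with markers without a count drawn at the dotted line and the range of 3 counts shaded. Root markers lie at 1.34 CPM or less except PHT1;1 and CASP1, whereas epidermis markers lie between 61.4 and 163 CPM.

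Of the 5 meristem markers, 2 were at or near the floor. WUS, the organizer gene of the stem cell niche, had no count in any mock library, which allows up to 0.211, 0.284 and 0.389 CPM, and the stem cell ligand CLV3 had 5, 3 and 0 counts. STM stood at 2.11, 1.90 and 1.95 CPM, KNAT1 at 19.6 ± 0.4 CPM and CLV1 at 19.8 ± 3.6 CPM. Primordium genes were higher, with FIL (AFO in the annotation) at 67.2 ± 5.4 CPM. CLV1 had a log2 change of 0.60 and PP2-A1, a phloem lectin, of 0.52 in the inhibitor shoots (edgeR adjusted p = 0.00138 and 0.00147). STM and KNAT1 did not pass, with adjusted p = 0.866 and 0.717, nor did the other 3 phloem markers SUC2, APL and SEOR1, with adjusted p = 0.532, 0.264 and 0.775.

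Trichome markers diverged. GL2 stood at 148.7 to 224.5 CPM in the inhibitor libraries, against 299, 246 and 267 CPM in mock, without overlap, with a log2 change of -0.48 ± 0.11 (edgeR adjusted p = 0.00407). In mock, its upstream regulator GL1 had 15, 5 and 11 counts and TRY 3.80 ± 0.87 CPM. GL1 and TRY had log2 changes of the same sign, -0.54 and -0.38, but did not pass (edgeR adjusted p = 0.489 and 0.209). GL2 also acts in the hypocotyl epidermis and in roots, so it does not mark trichomes alone.

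Root markers were low and not absent. Of the 8, 2 reached 1 CPM in each library: the phosphate carrier PHT1;1 at 5.20, 5.21 and 6.49 CPM and the endodermal CASP1 at 4.78, 4.55 and 3.76 CPM. WOX5, the root stem cell gene, had 7, 0 and 5 counts, the root meristem gene PLT1 3, 0 and 0, and the root hair gene COBL9 4, 3 and 0. The list summed to 4.22 to 10.1 CPM in the inhibitor libraries and to 14.8, 12.03 and 12.7 CPM in mock, without overlap. Only PHT1;1 and CASP1 were tested, and neither passed (edgeR adjusted p = 0.124 and 0.199). Their mock values overlap the inhibitor ranges, 2.59 to 5.99 CPM for PHT1;1 and 1.497 to 4.65 CPM for CASP1. The separation of the sum thus rests in part on the other markers, with 19 counts or fewer in any mock library. PYK10, a gene known to be high in roots and hypocotyls, stood at 4614 to 6954 CPM in the inhibitor libraries against 6783, 7834 and 8135 CPM in mock, ranges that overlap. Its log2 change was -0.47 ± 0.13 (edgeR adjusted p = 0.012) and was not called without Mock 2 or without Mock 3, where the highest adjusted p was 0.0764. The part of root or hypocotyl tissue in the values of PYK10 and GL2 was not tested.

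Transcripts of 2 seed storage proteins were measured at this age, while 11 of the 13 seed genes averaged below 10 TPM and the median was 1.36 TPM. The storage albumin SESA1 had 3, 5 and 0 counts. The cruciferins CRA1 and CRU3 stood at 19.1, 19.5 and 23.2 CPM and at 15.0, 24.7 and 32.7 CPM in the mock libraries. The 4 seed markers summed to 0 to 193 CPM in the inhibitor libraries and to 35.7, 46.6 and 60.1 CPM in mock, so the inhibitor libraries lay on both sides. Neither gene passed the edgeR test, with adjusted p = 0.851 for CRA1 and 0.806 for CRU3.

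The estimated replicate spread was lowest in mock. The biological coefficient of variation from edgeR's common dispersion was 16.5% in AZD8055, 13.8% in KU63794, 10.4% in TORIN1 and 8.01% in mock shoots, 4 single values whose difference was not tested. Without 1 mock library it was 7.22% to 8.78%. Relative spread was lowest for genes of 100 to 1000 CPM. Genes of 1 to 10 CPM had a median coefficient of variation of 17.5%, beside 16.6% as the full size of counting error. Genes of 10 to 100 CPM had 7.35% against 6.05% and genes of 100 to 1000 CPM 4.80% against 2.35%. The 79 genes of 1000 CPM or more had 5.23% against 0.697%. A median over only 3 libraries runs below the full spread, and the counting value was not lowered to match. The part of counting error below 10 CPM is thus overstated here, while above 1000 CPM most of the spread lay beyond it.

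**Figure D5:**
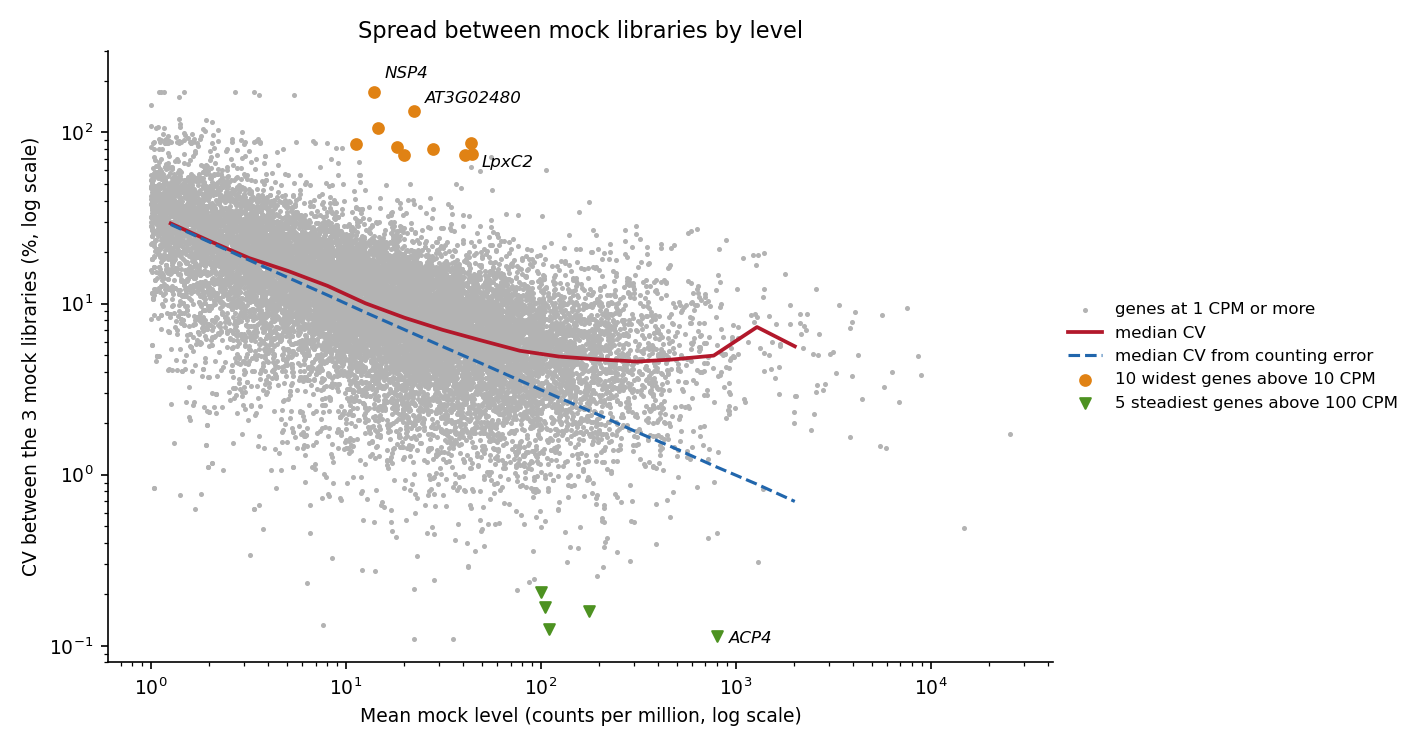
Coefficient of variation between the 3 mock libraries (%, log scale) against mean mock level (CPM, log scale), 1 grey point per gene, with the median of genes (solid), the median expected from counting (dashed), the 10 genes of widest spread above 10 CPM and the 5 steadiest above 100 CPM. The solid and dashed lines part above 10 CPM, and NSP4, AT3G02480 and LpxC2 lie far above both. The dashed line lies above what a median over 3 libraries would show from counting alone.

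Between pairs of mock libraries, few genes of 10 CPM or more differed over 2-fold: 14 between Mock 1 and Mock 2, 34 between Mock 1 and Mock 3 and 19 between Mock 2 and Mock 3. The 10 genes of widest spread on the log2(CPM + 0.5) scale were named by that rule, so their spread is a description. LpxC2, annotated as a UDP-3-O-acyl N-acetylglucosamine deacetylase, had 1015, 632 and 2 counts, while LpxC1, which bears the same product name, had 174, 123 and 77. NSP4, a nitrile specifier protein, had 597, 0 and 0 counts. AT3G02480, a late embryogenesis abundant protein, had 806, 25 and 63.

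Of the other 7 genes, SRO5 lay over a steadier neighbour. SRO5 had 636, 386 and 21 counts, and the annotation places it over ALDH12A1 on the opposite strand, which had 1710, 1202 and 938, or 120.2, 113.9 and 121.7 CPM. The delta-adaptin gene delta-ADR had 94, 611 and 531 counts and the kinase AT5G41680 had 866, 67 and 422. Their overlapping genes on the opposite strand were near the floor, AT1G48750 with 7, 3 and 1 counts and AT5G41685 with 4, 3 and 3. The others were AT4G19112 with 43, 275 and 234 counts, AT3G12010 with 465, 69 and 37, AT5G64343 with 112, 41 and 171 and the glycine-rich GRP23 with 509, 104 and 72. The inhibitor libraries varied as widely for several of them, from 2.28 to 171 CPM for AT3G02480, from 0.799 to 45.1 CPM for SRO5 and from 0 to 33.2 CPM for NSP4. Counting of reads from copies or overlapping genes is not described in the sources used here, and its part in these spreads was not tested.

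The 5 steadiest genes above 100 CPM were named for their small spread, which is a description. ACP4, the acyl carrier protein of leaf fatty acid synthesis, stood at 799, 799 and 801 CPM, a coefficient of variation of 0.113%. AT5G36290 stood at 109.9, 109.8 and 109.6 CPM, the thylakoid protease DEG1 at 176.4, 176.6 and 176.1 CPM, the proteasome subunit RPN12a at 106.0, 105.8 and 105.6 CPM and AT2G33430 at 100.4, 100.8 and 100.7 CPM. A gene steady among mock libraries was not for that reason steady across the series. ACP4 had a log2 change of -0.80 ± 0.09 (edgeR adjusted p = 9.18e-06), AT2G33430 of -1.22 (adjusted p = 3.8e-07) and DEG1 of 0.39 (adjusted p = 0.00155) in the inhibitor shoots, while AT5G36290 and RPN12a did not pass, with adjusted p = 0.139 and 0.53.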

How the data were processed

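Listed per the submitters' processing notes are TAIR10, DESeq2 1.18.1 and StringTie 1.3.3, with no role stated, and an aligner, a strand setting or a rule for shared reads is not given in the sources used here. Per library, deposited gene tables contain the authors' raw counts for each of the 12 libraries. Another deposited table holds a normalized signal that, from its values, is the authors' counts divided by 1 factor per library (largest relative deviation 5.1e-15). It was used only for that check and as an alternative for the list shares.

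From the counts, CPM was computed over all identifiers and TPM over the 32827 identifiers with an exon length in RefSeq TAIR10.1, which hold 99.58% of mock counts. Detection means 1 CPM in each mock library. The inhibitor comparison used edgeR 4.0.16 (TMM, its filter on low counts, robust quasi-likelihood fit of 4 groups), R 4.3.3 and Benjamini-Hochberg adjustment, checked on simulated data, with DESeq2 1.42.0 as an alternative; p-values there measure only the spread between these samples. Figures and tables used Python 3.11.15.

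The members, gene lists and markers were chosen with earlier results of these data known. Named genes are the 20 highest nuclear genes by TPM, up to 4 highest and the lowest of each list, the markers and the 10 widest and 5 steadiest genes; sister copies, AT1G52300, DYL1 and the genes of the closing section were chosen after their values were seen. Lists are described by counts and medians without a test of their own. All alternatives are given in the closing section.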

Additional observations from a re-analysis of the deposited data

How the results depend on the processing

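Alternatives covered the shares of lists, detection, ranking, spread, all genes called and the calls of 7 lists. These 7 were the ribosomal protein, elongation, chlorophyll, low-energy, antenna, photorespiration and flavonoid genes. In this tally 302 alternative values stayed within the replicate spread or within 1.5 times of the reported value and 8 did not. A reversal of sign was judged only for the log2 changes of named genes, outside this tally, and none was seen. Many of the values for list shares could only stay, so they are no support. A mean share without 1 mock library always lies within the SD of the 3 mock libraries. The deposited normalized signal divides counts by 1 factor per library, which leaves shares unchanged. Outside that tally, genes called higher moved with 1 library from 5 to between 1 and 7 for photosystem I, from 1 to between 1 and 5 for photosystem II and from 2 to between 1 and 3 for Rubisco and the Calvin cycle. The number of the 10 widest genes that were again among the 10 widest was 4 to 8 when 1 mock library was left out, 4 of them without Mock 1. Antenna genes called higher numbered 5 in the report, 2 to 10 without 1 library and 8 with DESeq2, and low-energy genes called lower numbered 14, and 8 to 15 without 1 library, the lowest without Mock 2. The 20 highest genes shared 15 with a ranking by CPM without length, and genes detected numbered 16037 at 10 counts in each library and 22047 at 1 count in any. Genes called between inhibitors and mock numbered 5883, of 17933 tested, 5721 with DESeq2, 5600 without the filter, 5887 with DESeq2 size factors and 4128 to 6304 without 1 library, the lowest without Mock 2. PYK10 lost its call without Mock 2 or Mock 3. The replicate block gave 5845; replicate numbers are not shown to pair the samples, since 3 of 18 same-number pairs correlated above 0.1 (range -0.268 to 0.228) and 5 of 12 libraries were nearest their own number. Depth limits statements on genes below about 1 CPM.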

Other observations

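The genes below were chosen after their values were seen. Genes of the ER body, the seedling compartment that stores PYK10, differed in how they varied between the mock libraries. NAI2, which forms the body, stood at 882, 1124 and 1049 CPM, and PBP1, a lectin that binds PYK10, at 439, 511 and 478 CPM. The regulator NAI1 was steady at 17.1, 15.4 and 16.3 CPM. BGLU21 and BGLU22, sister enzymes of PYK10, stood at 0.476 to 15.8 CPM and 4.73 to 20.1 CPM in the inhibitor libraries, against 80.8, 42.5 and 23.5 CPM and 61.2, 43.8 and 40.4 CPM in mock. Mock 1 was highest for BGLU21, whereas Mock 3 was highest for PYK10.

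Genes that turn stored oil into sugar after germination were still measured in mock shoots. ICL, isocitrate lyase, stood at 16.9 to 106 CPM in the inhibitor libraries and at 200.3, 177 and 96.9 CPM in mock. PCK1, a carboxykinase of the same route, stood at 171 to 347 CPM in the inhibitor libraries and at 367, 357 and 312 CPM in mock. MLS, malate synthase, stood at 1.181 to 21.8 CPM in the inhibitor libraries and at 12.7, 4.26 and 5.19 CPM in mock. The ranges overlap for ICL, PCK1 and MLS alike. In edgeR's test ICL had a log2 change of -1.50 (adjusted p = 0.0103) and PCK1 of -0.44 (adjusted p = 0.0156), while MLS did not pass, with adjusted p = 0.87.

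Of 10275 genes of 10 CPM or more in mock, 9 had counts identical to another gene in all 12 libraries, in 4 sets. One set of 3 ribosomal protein genes, AT1G58684, AT1G58983 and AT1G59359, had 793, 572 and 409 counts for each gene in the mock libraries.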
